A study of Rattus norvegicus with 4 samples.

Results

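The genes described here are the ErbB receptors Egfr, Erbb2, Erbb3 and Erbb4, the neuregulins Nrg1 and Nrg2, and the EGF-type ligands Hbegf, Btc, Areg and Ereg. They were chosen by gene symbol, and all 10 were found among the 17327 symbols of the deposited count files. RNA-Seq was performed on OLN93 cells, a spontaneously immortalized line from rat that belongs to the oligodendroglial lineage. The comparison was between 2 control libraries, labelled Sox10-positive, and 2 libraries from Sox10-deficient cells. Sox10 had been inactivated by CRISPR/Cas9, with a different guide RNA in clone A than in clone B, so that each edited library stands for a single clone. The letters A and B are given here in the order of the replicate numbers in the sample descriptions. All cells were grown in the same serum-containing medium. The methods of the study speak of control clones, whereas the sample labels call the controls biological replicates.

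ErbB proteins are receptor tyrosine kinases that work as pairs. ErbB3 binds neuregulins but has little kinase activity of its own, so that it signals through a partner, most often ErbB2, which in turn has no known ligand. Egfr binds the EGF-type ligands, and ErbB4 binds both neuregulins and several EGF-type ligands. In the neural crest and Schwann cells, neuregulin signalling through ErbB2 and ErbB3 is required for survival and migration, and Erbb3 is a known target of Sox10 in that lineage. Sox10 is the transcription factor that defines oligodendroglial and Schwann cell identity.

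The depth of the deposited counts sets how much can be read for this family. The paper reports far more reads per library than these counts hold. Why the counts are so few, and whether they are an even sample of those reads, was not tested. The libraries hold between 60951 and 104017 counts each, and 1 count corresponded to between 9.68 and 16.1 TMM-normalized counts per M (CPM). The floor of detection was set at 3 counts, or between 29.0 and 48.2 CPM, and lower counts were not read as expression. Intervals given below are exact 95% Poisson intervals for the count of a library and cover counting error only. Of the 10 genes, 6 had at least 1 count and only Erbb3 had enough counts to be tested. Sox10, the targeted gene, was read 28 times in control 1, 64 times in control 2, not at all in clone A and 14 times in clone B. Sox10 transcripts were thus lower in both clones but not absent from clone B, with a log2 fold change of -2.74 (SE 0.62, adjusted p = 0.0172, quasi-likelihood test of edgeR).

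Promoter sequence was at hand for 7 of the 10 genes, with Erbb3, Nrg1 and Ereg lacking an entry. The sequences of Erbb2 and Hbegf are shown because these are the genes with more than 3 counts in a library for which an entry exists. Each run covers 250 bases before to 50 after the start of transcription, 5′ to 3′ on the strand of the gene, from RefSeq on the rat assembly GRCr8. The counts rest on the older assembly rn5. The Erbb2 promoter lies at chr10:83907351-83907650 on the plus strand and the Hbegf promoter at chr18:28390171-28390470 on the minus strand.
Erbb2: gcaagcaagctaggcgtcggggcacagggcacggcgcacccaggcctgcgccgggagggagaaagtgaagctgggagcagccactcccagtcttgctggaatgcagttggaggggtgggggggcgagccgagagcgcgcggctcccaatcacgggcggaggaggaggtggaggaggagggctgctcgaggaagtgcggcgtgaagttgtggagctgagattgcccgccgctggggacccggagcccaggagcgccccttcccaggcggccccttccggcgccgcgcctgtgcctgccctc
Hbegf: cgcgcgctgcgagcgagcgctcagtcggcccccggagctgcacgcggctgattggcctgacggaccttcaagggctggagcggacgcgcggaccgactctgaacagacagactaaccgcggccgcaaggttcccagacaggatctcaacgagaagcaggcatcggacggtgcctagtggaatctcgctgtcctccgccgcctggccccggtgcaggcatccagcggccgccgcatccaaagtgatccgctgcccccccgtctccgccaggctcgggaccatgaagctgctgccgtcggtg
Both sequences are rich in G and C, at 71.3% and 68.7%. Sox proteins recognize short motifs through their HMG domain, and ACAAAG was searched for together with ACAATG as well as TCAAAG along with TCAATG on both strands. Any match would stand in capitals. No match lay in the 300 bases of Erbb2 or Hbegf, nor in those of Egfr, Erbb4, Nrg2, Btc or Areg. Of all 33469 rat promoters of this length, 44.9% hold at least 1 of these motifs. The search says only that these letters do not occur in these windows.

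Among the receptors, Erbb3 was the gene that differed between the groups. It had 15 counts in control 1, 13 in control 2 and 0 in both Sox10-deficient clones. In CPM, the controls stood at 241 (interval 135 to 397) and 126 (67.0 to 215), whereas the 0 counts allowed up to 34.7 CPM in clone A and 34.0 CPM in clone B by the floor of 3 counts. The groups did not overlap, and the lower bounds of both controls lay above the upper Poisson bounds of the clones, which were 42.7 and 41.8 CPM. The mean level was 183 ± 81.4 CPM in the controls (SD, n = 2). Taking the clones at the floor and the controls at their mean, Erbb3 was 5.34-fold lower in the Sox10-deficient clones. This limit leaves out the counting error of the controls, and the floor lies under the upper Poisson bounds of the clones. The same limit was 7.01-fold from control 1 alone and 3.66-fold from control 2 alone. It was between 5.29-fold and 5.39-fold when either clone was left out, which changes only the floor.

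Erbb3, listed as ENSRNOG00000004964, passed the test with a fitted log2 fold change of -6.93 (SE 1.49, adjusted p = 0.0131, quasi-likelihood test of edgeR over 2438 genes). This fitted value depends on the prior count, because both clones lay at 0, and is no bound on the decrease. Of all tested genes, 2.50% were called lower by an adjusted p up to 0.05 and at least a 2-fold change, and 6.97% by the unadjusted p. Erbb3 was among 7 of the 2438 tested genes that had 0 counts in both clones. Such a gene can have enough counts to be tested only through the controls, so that this number is no support for the decrease. The call did not rest on the clone in which Sox10 transcripts remained, since without clone B the log2 fold change was -6.91 with an adjusted p of 0.0274. It did rest on both controls: without control 2 the adjusted p rose to 0.377, and without control 1 too few counts were left for the gene to be tested. Fewer cells of a type and less RNA per cell cannot be told apart in such bulk libraries, and a response to the loss of Sox10 cannot be told apart from differences that arose between clones.

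Erbb2, the usual partner of ErbB3 and listed as ENSRNOG00000006450, was read unevenly. It had 0 counts in control 1 and 11 in control 2, against 1 and 2 in clones A and B. Control 2 stood alone at 106 CPM (interval 53.2 to 191), while control 1, with 0 counts and an upper Poisson bound of 59.2 CPM, lay below both clones, so that the groups overlapped. With the libraries of each group pooled, the level in the controls was 3.87 times that in the clones (exact 95% interval 1.02 to 21.6, counting error only), but without control 2 both groups lay at the floor. When genes were not filtered, the log2 fold change was -1.70 (SE 1.19) and edgeR gave an adjusted p of 0.895 and an unadjusted p of 0.152. A change of Erbb2 was therefore not detectable at this depth.

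The other receptors were at or near 0. Egfr had 0 counts in all 4 libraries, and Erbb4 had 1 count in clone A and 0 elsewhere. Both lay at the floor in every library, so that a level above 29.0 to 48.2 CPM would have been needed to see either gene. The authors' table, which rests on far more reads, gives a mean normalized count over all 4 libraries. This authors' mean is 0 for Egfr (ENSRNOG00000004332), 9 for Erbb4 (ENSRNOG00000014248), 572 for Erbb2 and 1919 for Erbb3. Mog and Olig2 are also listed at 0 there but have counts in these libraries, so that the authors' table and the counts disagree for some genes. Which of them is right was not tested, and a 0 in that table was not read as absence. These means are not corrected for the length of the transcript, so that they do not rank the receptors by expression.

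Summed over the 4 receptors, the libraries held 15 and 24 counts in the controls and 2 counts in each clone. The receptor sums were 241 and 232 CPM in the controls and 23.1 and 22.7 CPM in the clones. The controls thus resembled each other in the sum more than in its parts, because Erbb3 was higher in control 1 and Erbb2 was, of the controls, counted only in control 2. All receptor counts of control 1 came from Erbb3.

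Hbegf, a ligand of Egfr and ErbB4 that is shed from a membrane-bound precursor, was the ligand with the most counts. It is listed as ENSRNOG00000018646 and was read 3 and 13 times in controls 1 and 2, and 2 times in each clone. Its level was 48.2 CPM in control 1 (interval 9.94 to 141) and 126 CPM in control 2 (67.0 to 215), against 23.1 CPM in clone A (2.80 to 83.5) and 22.7 CPM in clone B (2.75 to 81.9). Both controls stood above both clones, but the intervals of all 4 libraries overlapped, and control 1 and the clones were at or under the floor. Among all 2160 genes with a total between 14 and 28 counts, which spans Erbb2, Hbegf and Erbb3, the controls stood above the clones without overlap in 19.6%. The share was 21.5% of the tested genes.

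Pooled over libraries, Hbegf was 4.22 times as high in the controls as in the clones (exact 95% interval 1.36 to 17.3, counting error only). Control 2 carried this ratio, which was 2.10 without it (0.308 to 12.4). The fit without a filter gave Hbegf a log2 fold change of -1.91 (SE 0.98), and edgeR gave an adjusted p of 0.717 and an unadjusted p of 0.0511. Hbegf therefore missed the threshold, whereas Erbb3 passed it in the same fit with an adjusted p of 0.000199. In that fit 0.698% of 10024 genes were called lower by the adjusted p.

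The remaining ligands were scarcely counted. Nrg1, the main ligand of ErbB3 in the nervous system, had 3 counts in control 1 and 0 in the other libraries. Nrg2, a related neuregulin, had 1 count in control 2 and 1 in clone A. Neither gene rose above the floor in any library. Btc, Areg and Ereg, which encode the EGF-type ligands betacellulin, amphiregulin and epiregulin, had 0 counts throughout. The authors' means are 93 for Nrg1, 32 for Nrg2 and 1082 for Hbegf, and 0 for Btc and 1 each for Areg and Ereg. No difference was detectable at this depth for any of these 5 ligands. No member was called higher by the adjusted p in the fit without a filter, which covered the 6 genes with counts and called 0.439% of all genes higher.

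**Figure D1:**
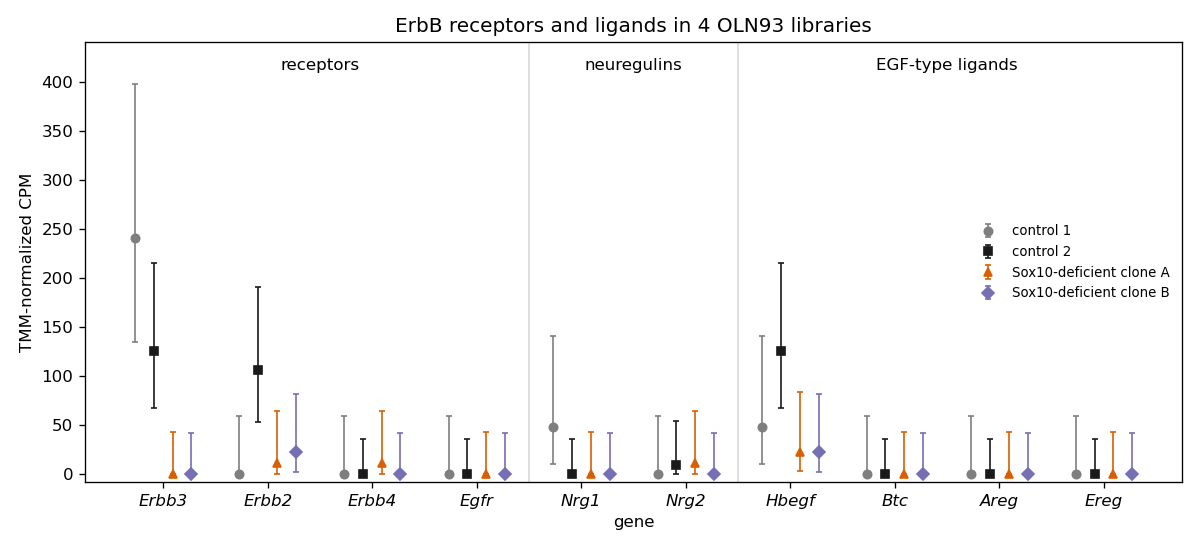
TMM-normalized CPM of each receptor and ligand gene in the 4 libraries, with points for single libraries and bars for the exact 95% Poisson interval of the count. Both controls lie above 0 for Erbb3, at 241 and 126 CPM, and both Sox10-deficient clones lie at 0, whereas Erbb2 stands out in control 2 alone.

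The deposited counts were set beside the authors' means to see what the depth allowed. The counts worked out below hold only if the deposited counts are an even share of those means. Bace1, Mog and Olig2 departed from such a share. For genes with an authors' mean of at least 500, the mean count per library was 0.384% of that mean in the median. It was 0.365% for Erbb3, 0.462% for Hbegf and 0.612% for Erbb2. At the median share, Erbb3 would have been met by 7.37 counts per library, Hbegf by 4.16 and Erbb2 by 2.20. Nrg1 would have been met by 0.357 counts and Erbb4 by 0.0346, so that their near absence from the counts goes with their low means.

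The expression pattern of Erbb3 over the 4 libraries was compared with that of every other tested gene, as a description from libraries that are few and shared by all genes. Of 2437 genes, 31 had a Pearson correlation above 0.99 on the log2 scale. Ddr1 was the most alike (r = 1.000), followed by Pak1 and Bzw1. Ddr1, a receptor tyrosine kinase for collagen, had 25 counts in each control and 3 in each clone. The mean of its controls was 322 ± 113 CPM and that of the clones 34.4 ± 0.475 CPM (SD, n = 2 per group), and its log2 fold change was -3.14 (SE 0.60, adjusted p = 0.00493, quasi-likelihood test of edgeR). Pak1, a kinase that acts on the cytoskeleton, was read 11 and 15 times in control cells and 7 times in each clone, with a log2 fold change of -0.98 (SE 0.61, adjusted p = 0.521 from the same edgeR test). Bzw1 had 8 and 12 counts against 7 and 7, with an adjusted p of 0.792 from edgeR. The likeness thus concerned the shape and not the size of the difference.

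**Figure D2:**
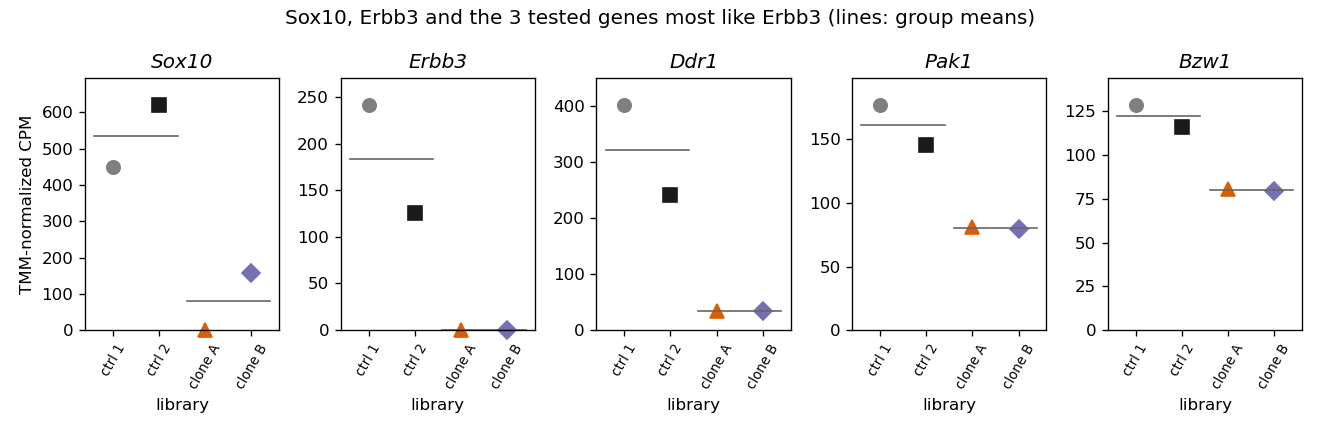
TMM-normalized CPM of Sox10, Erbb3 and the 3 tested genes most like Erbb3, with one point per library, lines at group means and a separate axis from 0 for each gene. Sox10 remains at 159 CPM in clone B, whereas Erbb3 is at 0 CPM in both clones and Ddr1 at 34.7 and 34.0 CPM.

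Genes around the receptors were taken from lists written from general knowledge. Of 95 genes, 88 had a symbol in the files and 32 were tested. None was called by the adjusted p from edgeR in either direction, and none by DESeq2. Of all tested genes, 2.50% were called lower and 1.11% higher by this rule. By the unadjusted p and a change of at least 2-fold, 2 of the 32 genes were lower and 2 were higher, where 6.97% and 4.63% of all tested genes met it. The controls stood above the clones without overlap for 7 of the 32 genes and below them for 10, where the shares over all tested genes were 21.5% and 21.6%. The median log2 fold change was 0.20 over the 32 genes and -0.0059 over all tested genes. Log2 fold changes were negative for 14 and positive for 18 of the 32 genes, against 1232 and 1206 of all tested genes. The splits by sign given below for single lists rest on few genes that share the same libraries, and were not tested.

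The other EGF-type ligands were at the floor. Egf and Epgn had 0 counts, Tgfa had 1 count in control 1 and Nrg4 had 3 counts in clone B. Nrg3 has no row in the counts.

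Ligands of this family are released from the membrane by proteases. Of 11 genes for such proteases and their helpers, 4 were tested, none was called by the adjusted p from edgeR and the median log2 fold change was -0.42. Rhbdf1, which encodes a rhomboid-like protein that assists the sheddase Adam17, gave control counts of 12 and 28, compared to 8 for clone A and 5 for clone B. Both controls were above both clones, with a log2 fold change of -1.64 (SE 0.56, unadjusted p = 0.00886 and adjusted p = 0.128 from edgeR). Bace1, a protease that cleaves Nrg1, gave control counts of 26 and 104, compared to 71 and 48 for the clones. It overlapped between the groups, with a log2 fold change of -0.11 (SE 0.35, adjusted p = 0.952 from edgeR). The authors' mean for Bace1 is only 248. Its counts lay far above the median share of 0.384% of that mean, so that the reading of Bace1 is uncertain.

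Downstream of the receptors, 11 of 35 adaptor and kinase genes were tested, with 7 negative and 4 positive log2 fold changes and a median of -0.24. Shc1, an adaptor that binds phosphorylated ErbB receptors and links them to Ras, gave 9 counts per control library, compared to 24 for clone A and 38 for clone B. In CPM these were 145 and 87.1 against 278 and 431, so that both clones lay above both controls. The log2 fold change of 1.66 (SE 0.46) had an unadjusted p of 0.00214 and an adjusted p of 0.0549 from edgeR, just outside the threshold. Over the alternatives, the adjusted p of Shc1 ranged from 0.0199 without control 1 to 0.530 without clone B. When genes were not filtered it was 0.0467, where 0.439% of genes were called higher. Mtor, a kinase that controls growth, gave 14 counts per control library, compared to 6 and 3 for the clones. It was lower in both clones, with a log2 fold change of -1.74 (SE 0.70, unadjusted p = 0.0238 and adjusted p = 0.224 from edgeR).

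Of 23 genes for inhibitors and for receptor turnover, 8 were tested. Their log2 fold changes were positive for 7 genes and negative for 1, with a median of 0.52, and none was called by the adjusted p from edgeR. Socs5, whose product promotes the breakdown of Egfr, gave control counts of 11 and 21, compared to 31 and 52 for the clones. Both clones were above both controls, with a log2 fold change of 1.30 (SE 0.39, unadjusted p = 0.0037 and adjusted p = 0.0765 from edgeR). Over the alternatives, the adjusted p of Socs5 ranged from 0.0456 with a minimum of 10 counts per library to 0.664 without clone B, where its log2 fold change was 0.90. Nedd4, a ubiquitin ligase, gave control counts of 170 and 248, compared to 289 and 258 for the clones, with a log2 fold change of 0.29 (SE 0.24, adjusted p = 0.671 from edgeR).

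Transcripts that growth factor signalling is known to induce were measured by 9 of 21 genes. The median log2 fold change was 0.38, with 7 positive and 2 negative values, and none met even the unadjusted criterion. Ccnd1, which encodes cyclin D1, gave control counts of 96 and 131, compared to 172 and 145 for the clones. Its log2 fold change was 0.38 (SE 0.25, adjusted p = 0.550 from edgeR). Phlda1, an early response gene, gave control counts of 35 and 107, compared to 59 and 75 for the clones, with a log2 fold change of -0.09 (SE 0.30, adjusted p = 0.956 from edgeR), and its groups overlapped.

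**Figure D3:**
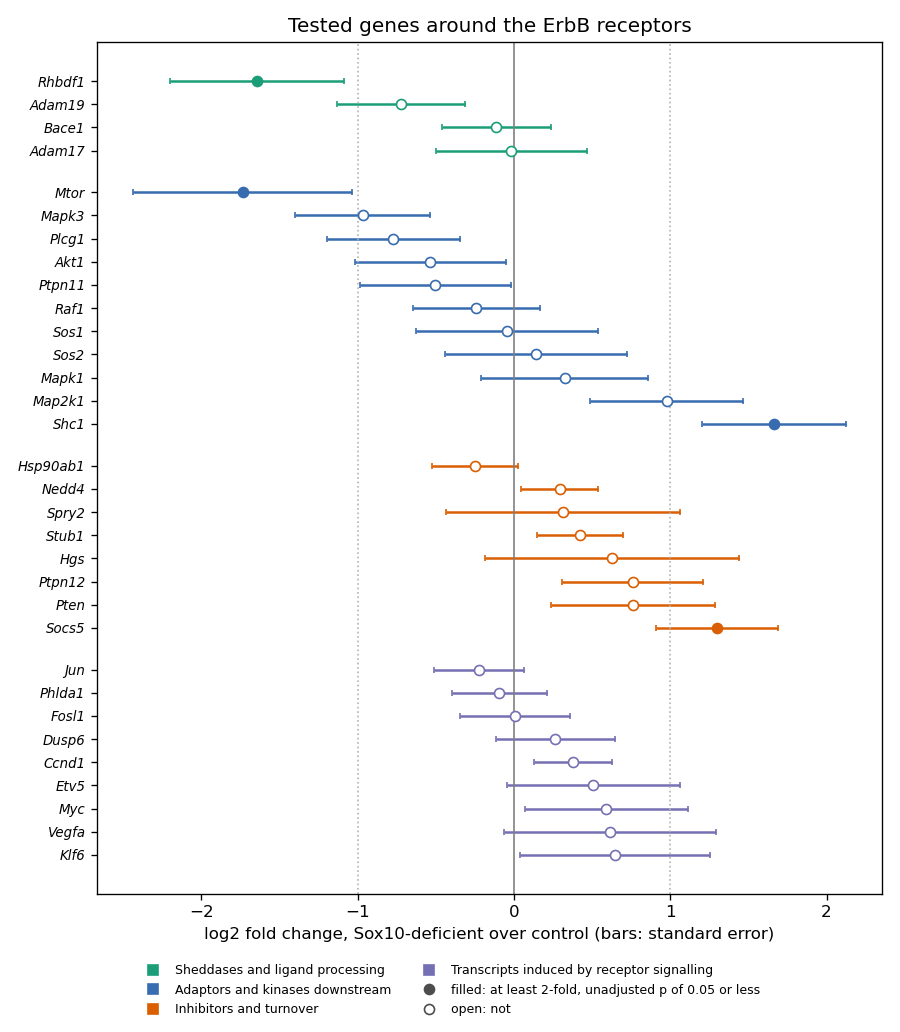
Log2 fold changes of the 32 tested genes around the ErbB receptors, Sox10-deficient over control, with bars for the standard error, colours for the lists and dotted lines at 2-fold. Filled points mark Rhbdf1, Mtor, Shc1 and Socs5, which met the unadjusted criterion, and all 4 have an adjusted p above 0.05.

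Markers of cell types were read beside these values. The 10 OPC markers, Sox10 included, summed to 2216 and 2004 CPM in the controls and to 1445 and 1633 CPM in clones A and B. Of the 5 that were tested, 3 had negative and 2 positive log2 fold changes, and Sox10 was the only one called. The log2 fold changes of the others were 0.22 for Pdgfra, 0.93 for Cspg4, -0.48 for Ptprz1 and -0.77 for Nkx2-2. Olig1 and Olig2, which define the lineage, were counted in the controls only, with 12 and 1 counts for Olig1 and 7 and 0 for Olig2. Both rose above the floor in control 1 alone. Neither was tested, and the fit without a filter gave adjusted p-values of 0.0569 for Olig1 and 0.508 for Olig2 from edgeR. The 10 markers of myelinating oligodendrocytes summed to 1349 and 968 CPM in the controls and to 682 and 420 CPM in the clones. All 3 tested genes of this list had negative log2 fold changes, and Cnp, an enzyme of myelin, was called lower at -1.36 (adjusted p = 0.0331, quasi-likelihood test of edgeR), whereas Mag and Mobp were at 0 throughout and Mbp had 2 counts in clone A alone. The markers of Schwann cells and neural crest, lineages that use Erbb3, summed to 1237 and 1336 CPM in the controls and to 520 and 306 CPM in clones A and B. Of these 8 markers, 7 had a symbol in the files, 5 had counts and 3 were tested, of which 1 was called lower. This was Ngfr, a neurotrophin receptor, which was read 37 and 62 times in control cells and, like Erbb3, in neither clone. Ngfr alone made up 594 and 600 CPM of the control sums. The other tested genes, Pmp22 and Tfap2a, had log2 fold changes of -1.09 and -0.08 and were not called, and Tfap2a overlapped between the groups. Cdh19 and Pou3f1 were at 0 in all libraries. The 9 astrocyte markers summed to 530 and 436 CPM in the controls and to 34.7 and 113 CPM in the clones, mainly through S100b, with Aqp4, Aldh1l1, Slc1a3 and Slc1a2 at 0 throughout. The fibroblast markers were lower in the clones too, with sums of 401 and 426 CPM in the controls against 324 and 193 CPM. Col1a1, the fibroblast marker that was tested, was not called (adjusted p = 0.541, quasi-likelihood test of edgeR). Microglia markers summed to 80.3 and 203 CPM in the controls and to 104 and 79.4 CPM in the clones. Neuron markers were nearly uncounted, and no gene of these last lists was tested. The part of all these markers in the decrease of Erbb3 was not tested.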

How the data were processed

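Total RNA of 4 OLN93 samples was sequenced as stranded mRNA libraries. Per the methods of the study and the submitters' processing notes, the authors mapped the reads to rat genome rn5 with STAR (version 2.5.1) and counted unique mappings with HTSeq. The deposited files hold whole-number counts per gene symbol with different sums per library, read here as not normalized. Whether counting used the strand is not given in the sources used here, so that genes overlapping another gene are uncertain. A further deposited table holds the DESeq2 comparison of the authors. From it, only the mean normalized count over all libraries, rounded by the authors and treated as a score, was used. Its fold changes, standard errors, test statistics and p-values were not used.

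The test was edgeR's quasi-likelihood test (version 4.0.16 under R 4.3.3; glmQLFit and glmQLFTest) after filterByExpr and TMM, with the condition as its only covariate. Standard errors were derived from the F statistic, and p-values were adjusted by Benjamini-Hochberg over 2438 genes. An exact permutation test of a single value cannot go below p = 0.333 with 2 libraries per group and was not used. The methods of the study speak of control clones and the labels of biological replicates, and how the controls were grown apart is not described further. The p-values measure the spread between these libraries. The 2 libraries of a group differed by more than counting noise, with a chi-square per degree of freedom of 2.18 for the controls and 2.20 for the clones over the tested genes. Limits of fold changes used 3 counts in each clone library and the measured values of the controls, without their counting error. Pooled ratios carry exact binomial intervals. The test was checked on simulated data. The members and the gene lists were chosen with earlier results of these data known, and no list was tested as a set. All members were named. Of each list, those genes were named with at least a 2-fold change and an unadjusted p up to 0.05, filled up to 2 genes by total count. The genes most like Erbb3 were the 3 with the highest Pearson correlation of log2 CPM (prior count 2). Marker genes were named after their values were seen, and 1 gene of the marker lists is not reported here. Alternatives were DESeq2 1.42.0, its size factors, library totals, other filters, the replicate number in the model, the unadjusted p and leaving out each library.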

Additional observations from a re-analysis of the deposited data

How the results depend on the processing

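The direction of the Erbb3 difference was fixed by the 0 counts in both clones, so that its sameness over the fits is no check. The adjusted p of Erbb3 was 0.0239 from DESeq2. From edgeR it was 0.0161 with the size factors of DESeq2 and 0.00671 with library totals. The replicate numbers of the labels do not mark a shared culture or day. With them as a replicate block, the log2 fold change was -6.97 with an adjusted p of 0.105, so that 0 members, 28 lower genes and 11 higher genes were called. The deviations of same-numbered libraries had a correlation of 0.12. Leaving out each library in turn gave Erbb3 log2 fold changes from -7.28 to -6.91, except without control 1, where Erbb3 was not tested. The call was lost when either control was left out. A group left with 1 library was taken to vary like the other group. It gave 2 to 70 lower and 0 to 39 higher genes, with 0 higher and 2 lower genes without control 2. Against 61 lower and 27 higher genes, DESeq2 called 28 and 8, and the unadjusted p 170 and 113. No filter gave 44 higher genes. With a minimum of 10 counts per library, 23 genes were lower, and 0 members were called because Erbb3 was not tested. Among the genes around the receptors, library totals, no filter and the minimum of 10 counts each called 1 higher gene in place of 0, which was Shc1 for the first pair and Socs5 for the last. Leaving out libraries gave 0 to 1, again Shc1. The unadjusted p gave 2 lower and 2 higher. The causes were not tested. Depth limits all members: a count of 0 allows between 29.0 and 48.2 CPM, which also caps the fold of Erbb3.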

Other observations

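The Sprouty genes encode feedback inhibitors of receptor tyrosine kinase signalling, and 3 of them stood on the list of inhibitors. They were singled out after their values were seen, and only Spry2 was tested. Spry4 gave 1 count per control library, compared to 13 for clone A and 8 for clone B, so that both clones lay above both controls. With its libraries pooled, the level in the controls was 0.100 times that in the clones (exact 95% interval 0.0114 to 0.411, counting error only). The fit without a filter gave Spry4 an adjusted p of 0.120 from edgeR's quasi-likelihood test. Spry1 gave control counts of 2 and 6, compared to 0 and 0 for the clones, with an adjusted p of 0.508 from the same fit. Spry2 had 7 counts in each control against 5 and 14, and its groups overlapped. The counts of Spry1 and Spry4 thus lay on opposite sides, and neither passed the threshold.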
